A study of Rattus norvegicus with 42 samples.

Results

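Elongating RNA polymerase 2 was measured in rat liver at the end of a constant corticosterone (CORT) infusion, and the CONS_180 libraries were set against those of vehicle-infused rats (VEH). The assay was ChIP-Seq with an antibody to the polymerase phosphorylated at serine 2 of its carboxy terminal domain (pSer2 Pol2). Each region was the stretch of an annotated transcript or gene from its transcription start site (TSS) up to 10 kb downstream, and all regions with a non-zero value in any pSer2 Pol2 library were used, which gave 38315 of the 60999 regions and 16568 of the 26426 genes in the table. All rats were adrenalectomised Sprague Dawley males, so that every group, VEH included, lacked its own adrenal CORT. CONS_180 rats received 0.0035 g of CORT, as a complex with HBC, in 1 ml of saline through a vein over 3 h at 0.333 ml per h, and livers were taken at 180 min. VEH rats received vehicle in the pulsatile pattern, 20 min of infusion in each hour at 1 ml per h, and 1 VEH library came from 140 min and 1 from 180 min. CONS_140 was the same constant infusion at 140 min. NADIR_180 and PEAK_140 were the pulsatile CORT infusion, between pulses at 180 min and at the end of a pulse at 140 min. Each group had 2 libraries, and each library pooled livers of 6 rats, so the spread between libraries was that between pools and not between animals. In VEH this spread also held the difference between 140 and 180 min. RNA-Seq compared 3 rats under constant CORT with 3 rats under constant vehicle at 180 min, and shared no library with the ChIP-Seq.

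Serine 2 of the polymerase tail is phosphorylated once the enzyme has left the promoter and is moving through the gene, so its presence in the gene body is read as ongoing transcription, whereas RNA-Seq counts the transcripts that have accumulated. CORT is the glucocorticoid of the rat, and acts through the glucocorticoid receptor (GR), a hormone-activated transcription factor. In liver, glucocorticoids are known for raising amino acid breakdown and glucose output and for inducing feedback genes such as Per1, Fkbp5 and Tsc22d3.

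Total tags ran from 4938473 in CONS_180 replicate 2 to 9326927 in CONS_140 replicate 1, and the VEH libraries held 7953030 and 5904816. The RNA libraries of the constant infusion held between 4711659 and 7777219 counted reads. The deposited pSer2 Pol2 values are on a log2 scale and the authors' transformation pulls sparse regions towards their own average, so a fitted fold change at a sparse region is neither an exact ratio nor a bound. In this report a value of 3.1 or less is named low, a limit chosen after the values were seen. This limit lies above the median region value of every library, 2.36 to 2.84, so most regions are low by it. Hepatocyte markers had a median VEH pSer2 Pol2 value of 11.5 over the 9 of 10 markers tested, whereas cholangiocyte markers were at a median of -1.37 and leukocyte markers at -1.44 (3 tested of each). No marker of any of the 7 cell type lists was called for pSer2 Pol2, and of their RNA only the hepatocyte list had a called member, Cps1. In the RNA the summed level of the macrophage markers ran from 289 to 515 CPM (read counts scaled to library size) in VEH and from 334 to 379 CPM in CORT, and that of the stellate markers from 532 to 644 CPM and from 447 to 504 CPM. Their part in the results was not tested.

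pSer2 Pol2 occupancy was raised at 30 genes and lowered at 9 genes at CONS_180 relative to VEH. Counted by region, 60 were raised (0.157%) and 22 lowered (0.0574%), since most genes have several regions. Only some tested regions were called for Lpin1, Usp2 and Mat1a (1 of 3 each), Sds (2 of 3), Ass1 (2 of 4) and Ugt2a3 (2 of 6). The raised genes included feedback genes of the glucocorticoid response, Sds and Tdo2 of amino acid breakdown, enzymes of the urea cycle and the methionine cycle, and the phosphatidate phosphatase gene Lpin1. The lowered genes included Fads2, the desaturase of polyunsaturated fatty acid synthesis, Cxcl12, a chemokine, and Serpina6, which encodes the corticosteroid-binding globulin of plasma. A gene was called at an adj p-value under 0.05 and a change over 1.5-fold in a limma model of all 10 libraries, adjusted over all regions. The raised genes were 0.181% and the lowered genes 0.0543% of the genes tested, and 1125 regions passed an unadjusted p-value of 0.05. The changes ran from 2.53-fold to 60.9-fold among raised genes and from 3.20-fold to 125-fold among lowered genes. At the threshold, Il6r lay just inside with an adj p-value of 0.0492, and 1 region of RGD1309079 just outside with 0.05002 at a log2 fold change of -2.90. Regions of Mat1a, which was called by another region, also lay just outside with 0.05002. Both CONS_180 libraries lay on the called side of both VEH libraries for each of the 39 genes, which the calling favoured but did not require. Of all genes, 9.62% had both CONS_180 libraries above both VEH libraries and 5% had both below.

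**Figure D1:**
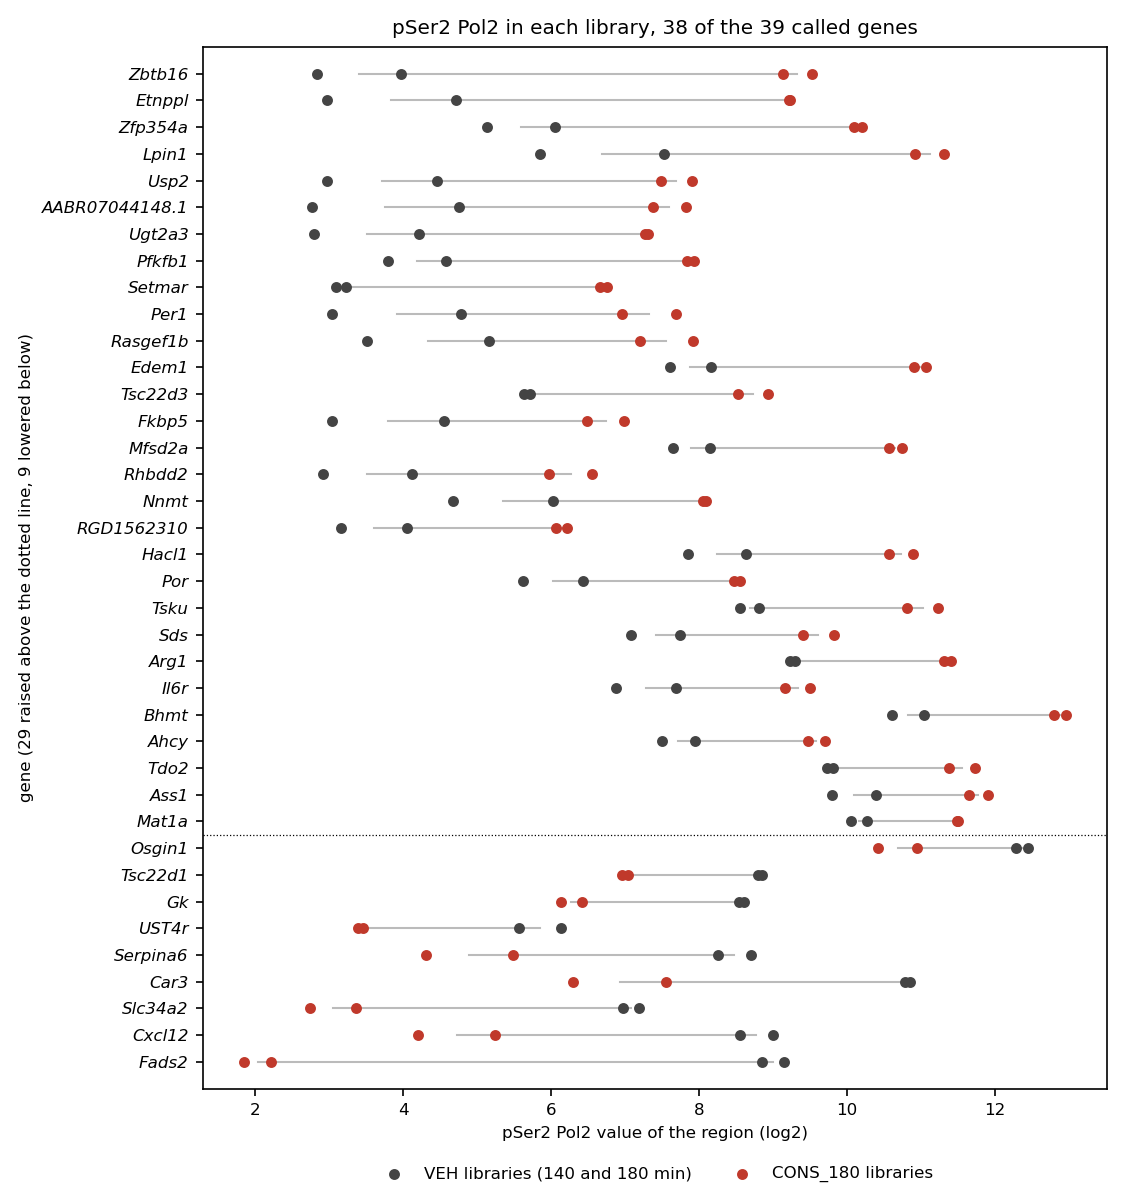
pSer2 Pol2 values (log2, horizontal axis) in the 2 VEH and the 2 CONS_180 libraries for 38 of the 39 called genes (vertical axis), with a grey line between group means. The 29 raised genes shown stand above the dotted line with their CONS_180 points to the right, and the VEH points of several lie apart from each other, as for Etnppl at 4.71 and 2.97.

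VEH replicates 1 and 2 are here the VEH libraries of 140 and of 180 min, so leaving 1 out also removes a time point. The number of calls rested on all 4 libraries. Without VEH replicate 2 it was 5 raised and 0 lowered, without VEH replicate 1 37 raised and 0 lowered, and without either CONS_180 library 0 in both directions, in fits where the remaining library of the group was assumed to vary like the other groups. After quantile normalization 105 genes were raised and 65 lowered, against 30 and 9. No called gene changed direction in any of the 13 alternative fits, but most of these fits could not reverse groups that did not overlap. Every called gene lost its call in some of the 13 fits, from 3 for Edem1 to 8 for Sds. Low VEH values were found at 9 raised genes, and low CONS_180 values at 2 lowered genes, Fads2 and Slc34a2. A fixed limit can miss sparse regions. UST4r at CONS_180 (3.39 and 3.45) and RGD1562310 in 1 VEH library (3.15) lay just above it. The 9 were Zbtb16, Etnppl, Usp2, AABR07044148.1, Ugt2a3, Setmar, Per1, Fkbp5 and Rhbdd2. The sizes of their fold changes below are poorly defined.

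Among listed glucocorticoid feedback and anti-inflammatory targets, Zbtb16, Per1, Tsc22d3, Fkbp5 and Il6r were raised. Zbtb16, a zinc finger transcription factor, had values of 3.96 and 2.84 in VEH and of 9.53 and 9.13 at CONS_180 over its region at chr8:53136953-53146953 (rn6, minus strand). This was the greatest rise among the called genes, with a log2 fold change of 5.93 ± 0.63 (SE, adj p-value 0.00259 by limma). Zbtb16 had 1 low VEH value. Its RNA was 80.9, 35.05 and 45.8 CPM in VEH and 651, 589 and 540 CPM in CORT, a 10.9-fold rise (adj p-value 5.06e-06 by edgeR). Per1, a repressor of the circadian clock, had 4.79 and 3.03 in VEH and 7.69 and 6.97 at CONS_180 (log2 fold change 3.42 ± 0.57, adj p-value 0.0436). Its RNA stood at 2.44 to 4.41 CPM in VEH and 27.2 to 31.5 CPM in CORT, 8.72-fold higher.

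Tsc22d3, which encodes the anti-inflammatory protein GILZ, had closely spaced VEH values of 5.64 and 5.71 and CONS_180 values of 8.94 and 8.53. Its pSer2 Pol2 and RNA changes were of like size, 3.06 ± 0.33 and 3.00 ± 0.29 on the log2 scale. Fkbp5, a co-chaperone that lowers the affinity of GR for its ligand, went from 4.55 and 3.04 to 6.99 and 6.49, a log2 fold change of 2.94 ± 0.49, and its RNA changed by 2.95 ± 0.26. Il6r, the interleukin 6 receptor, had 7.69 and 6.87 in VEH and 9.50 and 9.17 at CONS_180, and its RNA rose 3.28-fold. Of the glucocorticoid feedback and anti-inflammatory list, 5 of 22 tested members were raised and none lowered, beside 0.181% and 0.0543% of all genes. The median log2 fold change was 1.39 beside 0.01 over all genes. The members of this and the other lists were chosen with earlier results of these data known. Their shares and medians beside all genes are therefore descriptive only. RNA was raised for 13 and lowered for 2 of the 18 members tested, beside 4.45% and 4.75% of all transcripts tested. Members with high values that did not pass included Cebpb, a transcription factor of the acute phase response (2.23, adj p-value 0.594), and the lowest was Sgk1, a kinase (-1.38, adj p-value 0.152).

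The list of amino acid breakdown had 3 raised members, of which Sds and Tdo2 act on amino acids and Etnppl does not. Etnppl, a lyase that breaks down ethanolamine phosphate, a product of lipid turnover, had 4.71 and 2.97 in VEH and 9.22 and 9.24 at CONS_180. Its log2 fold change was 5.39 ± 0.49 (adj p-value 0.00146), and its RNA went from 37.7 to 52.5 CPM in VEH up to 475 to 616 CPM in CORT. Sds, the serine dehydratase that turns serine into pyruvate, had 7.75 and 7.09 in VEH and 9.82 and 9.41 at CONS_180 in its region at chr12:41620393-41627741 (rn6, minus strand). The Sds transcript rose more than its pSer2 Pol2, by 17.3-fold against 4.59-fold, with RNA at 19.8, 47.8 and 66.4 CPM in VEH and 532, 875 and 887 CPM in CORT. Tdo2, the tryptophan dioxygenase, had tight groups of 9.73 and 9.81 in VEH and 11.4 and 11.7 at CONS_180 and was 3.47-fold higher in pSer2 Pol2 and 4.27-fold higher in RNA. Of 25 tested members of the list these 3 were raised and none lowered, beside 0.181% and 0.0543% of all genes, with a median of 0.41. RNA was raised for 9 and lowered for 1 of 25, beside 4.45% and 4.75% of all transcripts. Got1, an aspartate aminotransferase, missed the pSer2 Pol2 threshold with 9.002 and 8.75 in VEH and 10.7 and 10.5 at CONS_180 (log2 fold change 1.71, adj p-value 0.0664), while its RNA rose (3.21, adj p-value 8.58e-08). The lowest member was Oat, ornithine aminotransferase, at -1.77 (adj p-value 0.390).

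Urea cycle genes, which dispose of the nitrogen released from amino acids, were raised at Arg1 and Ass1. Arg1, arginase, had 9.29 and 9.23 in VEH and 11.3 and 11.4 at CONS_180 and a log2 fold change of 2.10 ± 0.24 (adj p-value 0.00348). Ass1, argininosuccinate synthase, had 10.4 and 9.80 in VEH and 11.9 and 11.7 at CONS_180 (1.69 ± 0.28, adj p-value 0.0436). Their RNA rose 2.40-fold and 2.02-fold. Of 8 tested urea cycle genes, 2 were raised (0.181% of all genes were), none was lowered and the median was 0.76. RNA was raised for 4 of 7, beside 4.45% of all transcripts. Cps1, carbamoyl phosphate synthase, missed the threshold for pSer2 Pol2 (1.18, adj p-value 0.0841), whereas its RNA rose by 1.18 on the log2 scale. Slc25a13, a mitochondrial aspartate and glutamate carrier, was lowest at -0.61 (adj p-value 0.999).

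The methionine cycle supplies the methyl group donor S-adenosylmethionine. Mat1a, which makes it, had 10.3 and 10.1 in VEH and 11.5 in both CONS_180 libraries, a log2 fold change of 1.34 ± 0.23 and the smallest rise among the raised genes. It was called by 1 of its 3 regions (adj p-value 0.0490 by limma), and the others just missed (0.05002). Ahcy, which hydrolyses the spent donor, had 7.94 and 7.502 in VEH and 9.71 and 9.47 at CONS_180. Bhmt, which methylates homocysteine back to methionine, had 11.05 and 10.6 in VEH and 12.96 and 12.8 at CONS_180, with a log2 fold change of 2.05 ± 0.23. Bhmt was the single raised gene whose RNA was not called. Its RNA was 2043, 3086 and 2337 CPM in VEH and 3109, 2703 and 4555 CPM in CORT, so the groups overlapped (log2 fold change 0.47 ± 0.24, adj p-value 0.225). These 3 were the raised members among 13 tested, beside 0.181% of all genes, none was lowered, and the median was 0.58. RNA was raised for 4 of 13, beside 4.45% of all transcripts, and Mtrr, methionine synthase reductase, had the lowest pSer2 Pol2 change at -0.31 (adj p-value 0.999).

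Genes of lipid and glucose metabolism were raised singly rather than as whole lists. Lpin1, which makes diacylglycerol for triglyceride synthesis, had 7.53 and 5.85 in VEH and 11.3 and 10.9 at CONS_180 at chr6:41832817-41842817 (rn6, minus strand). Its log2 fold change was 4.43 ± 0.47 (adj p-value 0.00259 by limma) in 1 called region of 3 tested. The RNA change was 4.26 ± 0.26, with RNA at 70.8 to 99.8 CPM in VEH and 985 to 2145 CPM in CORT. Lpin1 was the raised member among 15 tested genes of triglyceride synthesis and storage and none was lowered, beside 0.181% and 0.0543% of all genes. The list median was 0.12. The lowest member was Plin2, a lipid droplet coat protein, at -0.83 (adj p-value 0.999). Pfkfb1, the liver form of the bifunctional enzyme that sets the level of the fructose bisphosphate regulating glycolysis, had 4.57 and 3.79 in VEH and 7.84 and 7.93 at CONS_180, and was 13.0-fold higher with RNA 9.26-fold higher. It was the raised member among 11 tested glycolysis genes, beside 0.181% of all genes. Mfsd2a, a transporter of lysophospholipids, had 8.15 and 7.65 in VEH and 10.7 and 10.6 at CONS_180, and its RNA rose 14.5-fold against 6.77-fold for pSer2 Pol2. Hacl1, a lyase of peroxisomal fatty acid oxidation, had 8.64 and 7.85 in VEH and 10.9 and 10.6 at CONS_180 (5.61-fold), with RNA 3.77-fold higher.

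Among genes of drug and small molecule metabolism, Por, the electron donor of the microsomal cytochromes, had 6.44 and 5.63 in VEH and 8.56 and 8.48 at CONS_180, and its RNA rose 6.55-fold. It was the raised member among 18 tested xenobiotic genes, beside 0.181% of all genes, with a list median of -0.03. The lowest was Ephx1, the microsomal epoxide hydrolase, with 8.22 and 7.90 in VEH and 5.31 and 4.46 at CONS_180 (log2 fold change -3.17, adj p-value 0.464), and its RNA changed by -0.34 (adj p-value 0.303). Nnmt, the nicotinamide methyltransferase, was raised 6.58-fold. Ugt2a3, a glucuronosyltransferase of a family with close copies and therefore uncertain, had 4.22 and 2.79 in VEH and 7.28 and 7.30 at CONS_180. Its pSer2 Pol2 was 13.8-fold higher, from a VEH group with 1 low value, and was called in 2 of 6 regions. Its RNA, already at 494 to 546 CPM in VEH, reached 743 to 820 CPM and was 1.52-fold higher.

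The remaining raised genes belonged to none of the lists. They were Zfp354a, a zinc finger gene (23.5-fold), Usp2, a deubiquitinating enzyme (15.8-fold), Setmar, a histone methyltransferase gene (11.8-fold), and Rasgef1b, a guanine nucleotide exchange factor (9.32-fold). Edem1, which clears misfolded glycoproteins from the endoplasmic reticulum, had 8.16 and 7.61 in VEH and 11.1 and 10.9 at CONS_180, and its RNA went from 149 to 177 CPM up to 1325 to 1719 CPM. Rhbdd2, a rhomboid domain gene, Tsku, a secreted protein, and RGD1562310, of which only the identifier is given, were raised 6.74-fold, 5.05-fold and 5.81-fold. AABR07044148.1, an unnamed long intergenic RNA with an uncertain identity, was raised 14.4-fold at chr19:59656229-59660731 (rn6, plus strand), and its RNA was 0 to 0.441 CPM in VEH and 3.76 to 7.18 CPM in CORT. No called region overlapped a region of another gene. Rhbdd2 and Por on chromosome 12, and Zbtb16 and Nnmt on chromosome 8, had start sites within 500 kb of each other.

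Promoter sequences were available for 29 of the 39 genes, and are given for Tdo2, whose start site lay inside a GR peak, for Mat1a and Lpin1, the promoters that held the hexamer described here, and for Fads2, the gene with the greatest fall. They are RefSeq sequences of GRCr8, 300 bases running 5′ to 3′ on the strand of the gene from 250 bases before to 50 bases after the start, and differ in build from the rn6 regions above. The windows were chr2:169585537-169585836 for Tdo2, chr16:17016918-17017217 for Mat1a, chr6:45108893-45109192 for Lpin1 and chr1:216171984-216172283 for Fads2. Capitals mark AGAACA or its reverse complement TGTTCT, the arms of the palindrome that GR dimers recognise.
Tdo2: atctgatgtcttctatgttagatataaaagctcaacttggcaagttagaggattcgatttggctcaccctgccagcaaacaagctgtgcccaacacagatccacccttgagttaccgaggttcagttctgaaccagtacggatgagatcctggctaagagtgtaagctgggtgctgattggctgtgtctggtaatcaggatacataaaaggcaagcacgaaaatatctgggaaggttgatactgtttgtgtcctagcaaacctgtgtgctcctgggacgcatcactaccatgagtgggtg
Mat1a: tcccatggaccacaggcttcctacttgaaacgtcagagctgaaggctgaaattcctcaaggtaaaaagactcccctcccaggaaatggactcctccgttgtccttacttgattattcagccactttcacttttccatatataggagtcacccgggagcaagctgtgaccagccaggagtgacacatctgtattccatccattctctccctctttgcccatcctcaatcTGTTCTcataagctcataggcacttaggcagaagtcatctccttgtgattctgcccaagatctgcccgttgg
Lpin1: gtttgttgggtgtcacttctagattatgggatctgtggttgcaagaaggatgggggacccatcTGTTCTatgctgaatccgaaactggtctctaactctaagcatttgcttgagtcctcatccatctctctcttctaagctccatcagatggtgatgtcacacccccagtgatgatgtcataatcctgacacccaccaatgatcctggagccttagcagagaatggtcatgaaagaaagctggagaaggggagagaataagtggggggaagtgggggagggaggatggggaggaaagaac
Fads2: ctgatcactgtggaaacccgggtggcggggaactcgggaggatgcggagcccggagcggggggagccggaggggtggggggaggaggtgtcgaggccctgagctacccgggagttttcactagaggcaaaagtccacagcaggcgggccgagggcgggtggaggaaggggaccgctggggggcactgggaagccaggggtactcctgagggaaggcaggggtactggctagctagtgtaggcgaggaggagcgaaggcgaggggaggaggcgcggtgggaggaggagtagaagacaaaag
On either strand, the palindrome, AGAACA followed by 3 bases of any kind and TGTTCT, was found in none of the 29 promoters and in 5 of 33469 in all (0.0149%). Its arm AGAACA, which the palindrome contains, was in 2 of 22 raised promoters (9.09%) and in none of 7 lowered ones, beside 20.7% of all promoters. The clock element CACGTG was in 1 raised promoter, that of Il6r, beside 6.42% of all.

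Among the lowered genes the greatest fall was that of Fads2. It had 9.16 and 8.85 in VEH and 1.85 and 2.22 at CONS_180 at chr1:226142524-226152524 (rn6, minus strand), a fitted log2 fold change of -6.97 ± 0.88 (adj p-value 0.00893). Both CONS_180 values were low by the limit above, so the size of the fall is not well defined. Its RNA fell from 437 to 496 CPM in VEH to 148 to 230 CPM in CORT, which is 2.26-fold lower. Fads1, the neighbouring desaturase of the same pathway, had 8.40 and 8.08 in VEH and 5.33 and 2.35 at CONS_180 (log2 fold change -4.40, adj p-value 0.152), and its RNA was lowered (-1.13, adj p-value 0.00140). Of 12 tested genes of fatty acid desaturation and elongation, Fads2 was lowered and none was raised, beside 0.0543% and 0.181% of all genes. The median was -0.00, and RNA was lowered for 5 and raised for 1 of 11, beside 4.75% and 4.45% of all transcripts. The highest member was Hsd17b12, a reductase of fatty acid elongation, at 2.11 (adj p-value 0.371).

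Cxcl12 had 8.997 and 8.55 in VEH and 5.25 and 4.20 at CONS_180, and its RNA fell to 45.9 to 54.2 CPM from 118 to 141 CPM. Slc34a2, a sodium phosphate cotransporter, had 7.19 and 6.97 in VEH and 3.36 and 2.74 at CONS_180, and its RNA was 8.24-fold lower. Gk, glycerol kinase, had 8.54 and 8.61 in VEH and 6.42 and 6.13 at CONS_180, and its RNA was 2.88-fold lower. Tsc22d1, a member of the same family as Tsc22d3 but opposite in direction, had 8.80 and 8.85 in VEH and 6.95 and 7.04 at CONS_180. Its RNA fell 3.90-fold. Osgin1, an oxidative stress response gene, was among the 10 genes with the highest VEH values, at 12.4 and 12.3, and had 10.95 and 10.4 at CONS_180. Its RNA fell from 176, 219 and 263 CPM to 14.2, 11.7 and 6.99 CPM, 20.0-fold lower against 3.20-fold for pSer2 Pol2.

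For 3 lowered genes the RNA did not pass. Serpina6 had 8.70 and 8.26 in VEH and 5.48 and 4.30 at CONS_180, 12.03-fold lower, while its RNA was 346, 423 and 392.2 CPM in VEH and 281, 254 and 368 CPM in CORT, with overlapping groups (log2 fold change -0.36 ± 0.16, adj p-value 0.177). Car3, carbonic anhydrase III, had 10.8 and 10.9 in VEH and 6.30 and 7.56 at CONS_180, 14.8-fold lower. Its RNA was 3930 to 4177 CPM in VEH and 2553 to 3405 CPM in CORT (log2 fold change -0.45, adj p-value 0.0454), under the fold threshold. UST4r, an organic anion transporter of a family with close copies and so uncertain, had 6.14 and 5.56 in VEH and 3.39 and 3.45 at CONS_180, and its RNA changed by -0.94 (adj p-value 0.0917).

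Of the 30 genes raised in pSer2 Pol2, 29 were raised in RNA (96.7%), and of the 9 lowered genes 6 were lowered in RNA (66.7%). Among the 11543 genes tested in both assays, RNA was raised for 4.89% and lowered for 5.01%. None of the 39 was called in the other direction. Without VEH replicate 1 the counts with RNA called alike were 30 raised and 0 lowered, without VEH replicate 2 5 and 0, and without either CONS_180 library 0 and 0. Raised genes had a median log2 fold change of 2.76 in pSer2 Pol2 and 2.85 in RNA, and lowered genes of -3.59 and -1.40. The RNA change was smaller than that of pSer2 Pol2 for 20 of the 30 raised and 7 of the 9 lowered genes. The vehicle rats of the ChIP-Seq were infused in the pulsatile pattern and those of the RNA-Seq in the constant pattern, which cannot be told apart here from other differences between the assays.

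**Figure D2:**
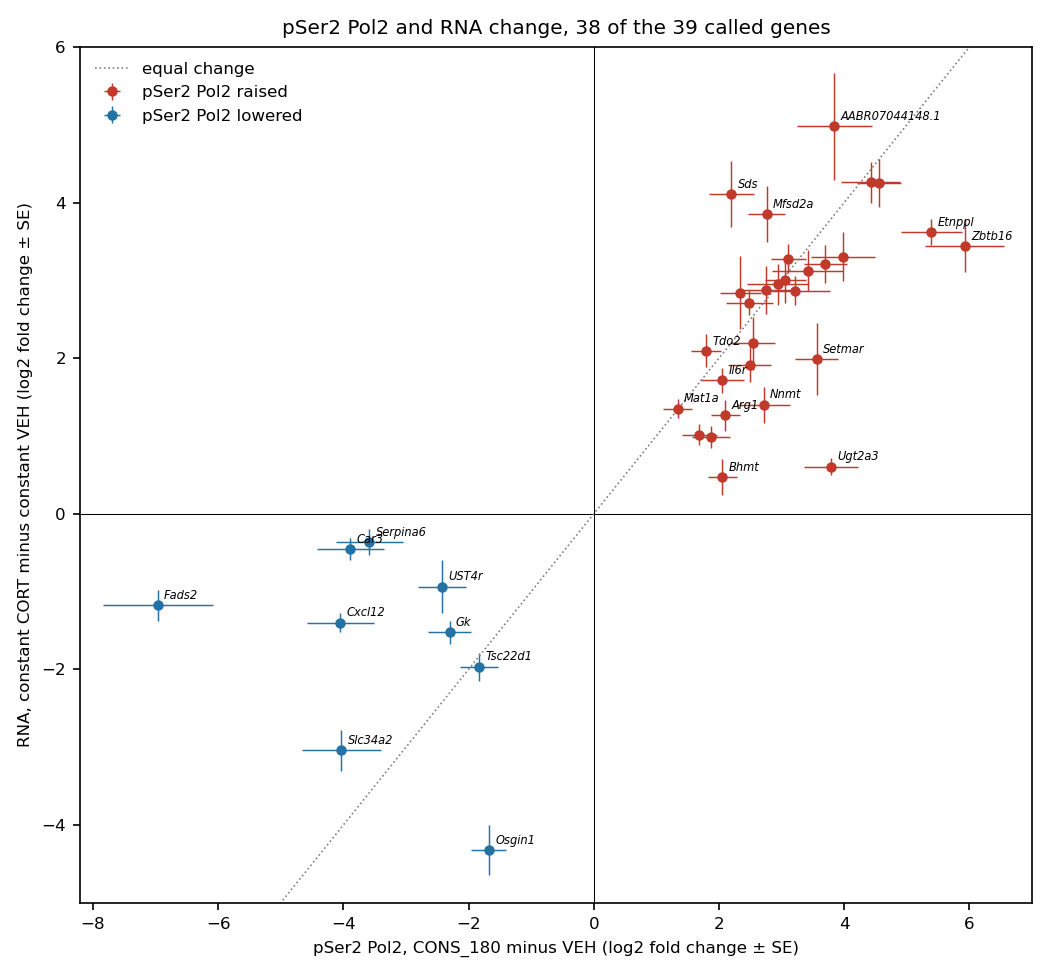
Log2 fold change of pSer2 Pol2 (CONS_180 minus VEH, horizontal axis) and of RNA (constant CORT minus constant VEH, vertical axis) for 38 of the 39 called genes, with bars of 1 SE, a dotted line of equal change, and names where points do not crowd. All 38 points have the same sign on both axes, Fads2 lies far left of the line at -6.97 and -1.18, and Osgin1 lies far below it at -1.68 and -4.32.

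Seen from the RNA, few genes were called by pSer2 Pol2. Constant CORT raised 627 transcripts (4.45%) and lowered 670 (4.75%) of 14092 tested, and 565 and 578 of them had a tested region. Of those, 5.13% were also raised and 1.04% also lowered in pSer2 Pol2, beside 0.181% and 0.0543% of all genes with a tested region. Among RNA-raised genes the pSer2 Pol2 log2 fold change was above 0 for 89.7%, beside 56.2% of all genes tested in both assays, and both CONS_180 libraries lay above both VEH libraries for 48.1%, beside 9.43%. Among RNA-lowered genes it was above 0 for 21.3%, and both CONS_180 libraries lay below both VEH libraries for 32.7%, beside 6.1%. The medians were 0.29 and -0.26.

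The transcripts with the greatest changes that had a tested region were mostly outside the called pSer2 Pol2 genes. RNA of AABR07015559.1 rose from 0 to 0.220 CPM in VEH to 25.3 to 34.5 CPM in CORT, while its pSer2 Pol2 values were -0.65 in both VEH libraries and -0.65 and -0.64 at CONS_180. The next were AABR07044148.1, AABR07027072.1 (pSer2 Pol2 2.42, adj p-value 0.270), Colq (0.01) and AABR07058656.1 (0.14), of which the AABR genes are unnamed and uncertain. The greatest falls were those of Lcn2, an acute phase protein, with an RNA log2 fold change of -5.90 and a pSer2 Pol2 change of -0.21, and of Osgin1. The Lcn2 level in VEH came from 1 rat, at 139 CPM against 1.22 and 1.81 CPM in the others, and CORT rats were at 0.537 to 0.985 CPM. They were followed by Scd, the stearoyl desaturase, with -3.80 in RNA and 0.42 in pSer2 Pol2 (adj p-value 0.999). Its RNA was spread from 202 to 1286 CPM in VEH and from 19.5 to 91.3 CPM in CORT. AABR07066820.1 and Cxcl1, a neutrophil chemokine, had -3.62 and -3.56 in RNA and -0.14 and -1.07 in pSer2 Pol2.

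Sterol synthesis was the list with the lowest median pSer2 Pol2 change, although none of its 26 tested members was called. The median was -0.97, beside 0.01 over all genes, and both CONS_180 libraries lay below both VEH libraries for 14 members and above for 2, beside 5% and 9.62% of all genes. RNA was lowered for 18 and raised for 1 of 25 members, beside 4.75% and 4.45% of all transcripts. Msmo1, a sterol methyl oxidase, was lowest with 7.95 and 7.75 in VEH and 6.15 and 4.12 at CONS_180 (log2 fold change -2.71, adj p-value 0.857), and its RNA was -1.79 (adj p-value 0.000775). Hmgcs1, which makes the precursor of mevalonate, had 9.92 and 9.77 in VEH and 7.92 and 6.95 at CONS_180 (-2.41, adj p-value 0.139). Its RNA was lowered (-1.74, adj p-value 0.00105). Hmgcs1 was named after its values were seen.

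De novo lipogenesis, the making of fatty acids from acetyl groups, had RNA lowered for 8 and raised for 0 of 10 members, beside 4.75% and 4.45% of all transcripts, and no pSer2 Pol2 call. The lowest pSer2 Pol2 member was Acly, ATP citrate lyase, at -1.87 (adj p-value 0.999), and the highest Thrsp, a lipogenic regulator, at 0.43. Their RNA changed by -1.82 and -1.49. Fatty acid binding, oxidation and ketogenesis had 10 of 19 members below VEH in both CONS_180 libraries and 1 above, beside 5% and 9.62% of all genes, with a median of -0.26 and no call. Fabp1, the liver fatty acid binding protein, had 10.4 and 10.3 in VEH and 8.36 and 7.61 at CONS_180 (-2.39, adj p-value 0.0597), and Cpt2, a carnitine acyltransferase, was highest at 1.40.

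Genes of glucose output did not pass for pSer2 Pol2. Their median was 0.00 over 15 members, with Foxo3, a transcription factor, highest at 1.79 (adj p-value 0.999) and Pdk4, the kinase that restrains pyruvate dehydrogenase, lowest at -1.77 (adj p-value 0.0633). RNA was raised for 4 and lowered for 2 of 14, beside 4.45% and 4.75% of all transcripts. G6pc, the glucose-6-phosphatase, had 12.3 and 12.1 in VEH and 11.9 and 11.7 at CONS_180 (log2 fold change -0.37 ± 0.29), with no RNA row tested. Its partner transporter Slc37a4 had 8.12 and 7.70 in VEH and 8.90 and 8.38 at CONS_180 (0.73 ± 0.35). Pck1, the rate-limiting enzyme of gluconeogenesis and among the 10 genes with the highest VEH values, changed by 0.29 in pSer2 Pol2 and by 0.91 in RNA (adj p-value 0.00208). The glycogen list had a median of -0.06, with Ppp1r3c, a phosphatase subunit, highest at 0.99 and Ugp2, which makes UDP-glucose, lowest at -1.48. The glycolysis list, apart from Pfkfb1, reached down to Pklr, pyruvate kinase, at -0.95 with RNA at -1.79.

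Among growth genes, Igfbp1, an insulin-like growth factor binding protein, had 9.94 and 9.71 in VEH and 10.6 in both CONS_180 libraries, a log2 fold change of 0.77 ± 0.27 (adj p-value 0.918). Its RNA rose 7.90-fold, from 14.3 to 39.3 CPM up to 154 to 251 CPM. Igf1, the growth factor itself, was the lowest of the growth and insulin list at -0.82 ± 0.33, and Cdkn1a, a cell cycle inhibitor, the highest at 1.48. Myc, a growth-related transcription factor, had 6.39 and 6.05 in VEH and 7.93 and 6.78 at CONS_180 (1.14 ± 0.46, adj p-value 0.999), and its RNA was not called (0.79, adj p-value 0.407). Apob, the structural protein of secreted lipoproteins, had 11.5 and 11.3 in VEH and 10.7 and 10.6 at CONS_180 (-0.77 ± 0.27, adj p-value 0.879). The growth list had RNA raised for 7 and lowered for 2 of 21, beside 4.45% and 4.75% of all transcripts, and no pSer2 Pol2 call.

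The other lists without a call were amino acid transport, apolipoproteins, bile acid synthesis, and Krueppel-like and immediate early factors. Their medians were 0.18, 0.23, -0.16 and -0.02. The extremes were the amino acid transporters Slc38a2 at 1.35 and Slc38a3 at -0.65, and the apolipoprotein Apoa4 at 0.88 and the hepatic lipase Lipc at -1.16. Those of the other two lists were the sterol hydroxylases Cyp27a1 at 1.49 and Cyp8b1 at -1.79, and the transcription factors Klf13 at 2.23 and Jun at -0.78. In the circadian clock list Per1 was raised among 19 tested genes, beside 0.181% of all genes. The list median was -0.04, and Nfil3, a transcriptional repressor, was lowest at -0.76. In the plasma protein list Serpina6 was lowered among 26, beside 0.0543% of all genes, and the median was 0.07. Orm1, an acute phase protein, was highest with 6.34 and 5.65 in VEH and 8.74 and 7.78 at CONS_180 (2.26, adj p-value 0.0998 by limma). The RNA of Orm1 went the other way, at -1.99 (adj p-value 0.0125), and that difference between assays was not tested. Of the 10 genes with the highest VEH values, the other members besides Osgin1, Pck1 and G6pc were albumin (Alb), the growth factor receptor inhibitor Errfi1, the fibrinogen chains Fga, Fgg and Fgb, tyrosine aminotransferase (Tat) and LOC299282, with pSer2 Pol2 changes between -0.08 and 0.85. Per kb of region their VEH levels lay between 8.77 and 9.50 on the log2 scale.

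**Figure D3:**
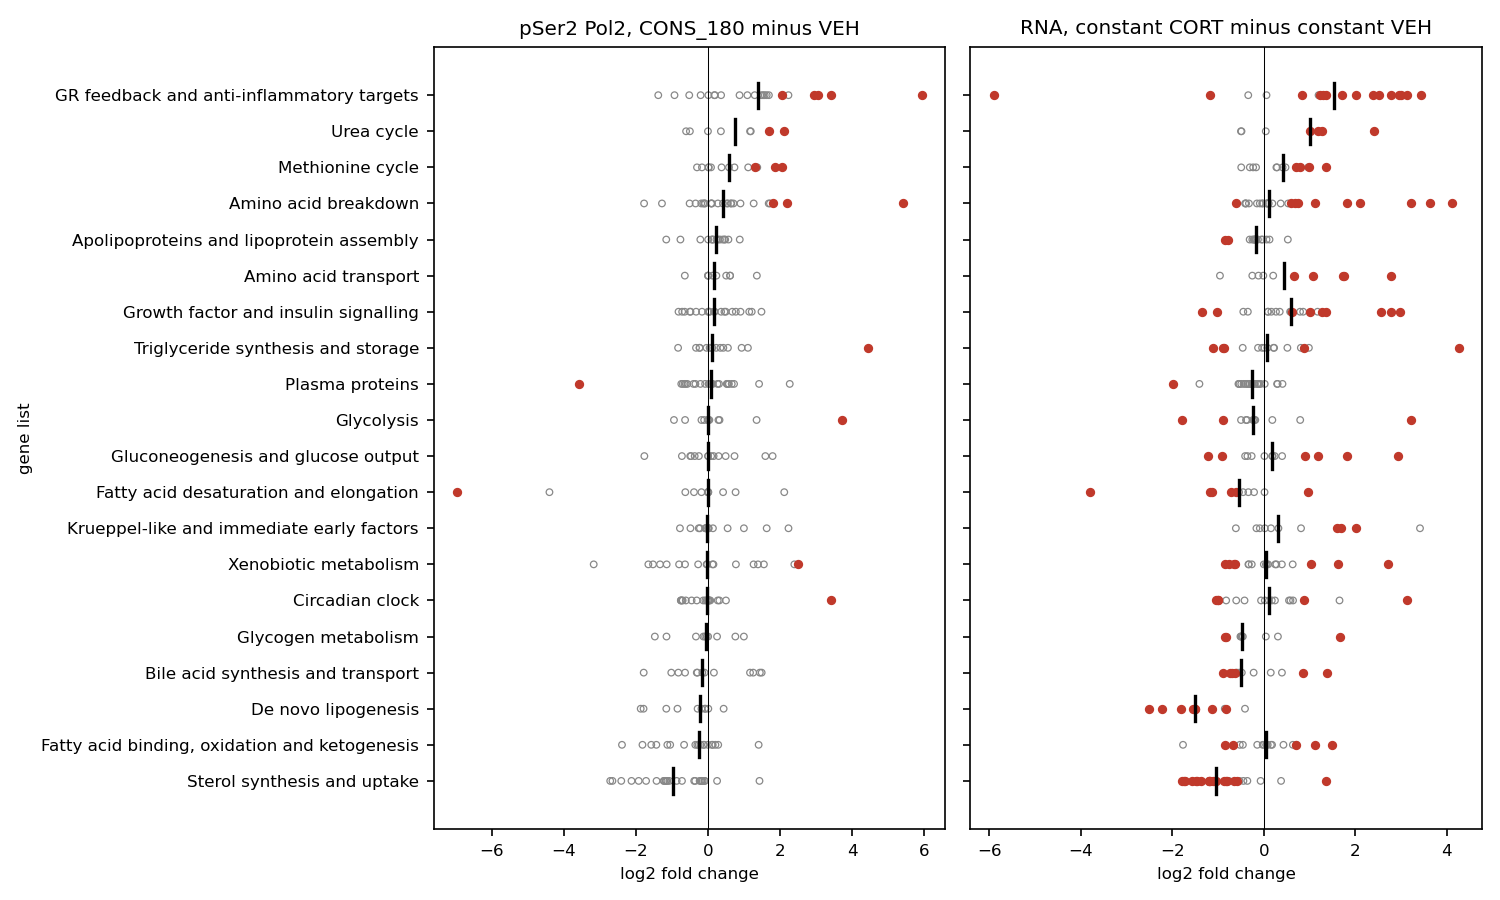
Log2 fold change of pSer2 Pol2 (left) and of RNA (right) for each tested member of the 20 gene lists, ordered by the pSer2 Pol2 median, with filled points for called genes, open points for the others and a black bar at the median. Pol2 members are shown by the region with the highest mean value. The glucocorticoid feedback list is at the top with medians of 1.39 and 1.54, and sterol synthesis at the bottom with -0.97 and -1.05.

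Between 140 and 180 min of constant infusion no gene passed the test in either direction (0% of the genes tested, with 1134 regions at an unadjusted p-value under 0.05), and with a replicate block 2 genes were higher at 180 min. A p-value that misses the threshold does not show that the time points were alike. CONS_140 replicate 1 had a median region value of 2.84, whereas the other 9 libraries lay between 2.36 and 2.56, and all regions had a median difference of -0.17 between CONS_180 and CONS_140. Without CONS_140 replicate 1 the test called 6 genes higher and 0 lower at 180 min, and without CONS_140 replicate 2 it called 31 higher and 2538 lower. Of the 30 raised genes, 29 stood above VEH at CONS_140 as well, and 24 were lower at CONS_180 than at CONS_140, with a median difference of -0.51. Both directions were also those of the background. The median of CONS_180 minus CONS_140 over all genes tested was -0.16, and that of CONS_140 minus VEH over all regions was 0.15. Since both time points share the VEH libraries, the values are only set side by side. The medians relative to VEH were 3.53 at CONS_140 and 2.76 at CONS_180 for the raised genes, and -2.09 and -3.59 for the lowered genes. Hacl1 was the exception, with 8.27 and 7.99 at CONS_140, 10.9 and 10.6 at CONS_180 and 8.64 and 7.85 in VEH. Among the lowered genes Fads2 had 5.63 and 1.74 at CONS_140, so that the replicates of that group lay far apart. Tsc22d1 was near VEH at CONS_140, with 8.80 and 8.35.

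At the same time of 180 min, constant infusion was higher than the nadir of the pulsatile infusion at 28 genes (0.169%) and lower at 1 (0.00604%), Cxcl1. Of the 30 raised genes, 17 passed this test and of the 9 lowered genes none did. The CONS_180 libraries in this test also chose the genes against VEH, which favoured passing, so the count is no separate support. Without either CONS_180 library no gene was higher or lower, without NADIR_180 replicate 1 5 were higher and 1 lower, and without NADIR_180 replicate 2 19 were higher and 63 lower. After quantile normalization the split was 61 higher and 19 lower, and after centring each library on its median 61 higher and 11 lower. Lpin1 had 6.57 and 6.22 at NADIR_180, close to VEH, and 11.3 and 10.9 at CONS_180, a difference of 4.73 ± 0.47 (adj p-value 0.00328). Tsku had 7.90 and 7.21 at NADIR_180, below both VEH libraries, and 11.2 and 10.8 at CONS_180 (3.47 ± 0.33, adj p-value 0.00289). Ass1 and Por also passed, at 2.03 and 2.53. Per1, Usp2 and Rasgef1b did not, with differences of 1.40, 1.63 and 1.55, and stood above VEH at NADIR_180 by 2.02, 2.35 and 1.67. Genes that passed without being called against VEH included Scd, with 2.88 and 2.84 at NADIR_180 and 6.45 and 6.30 at CONS_180 (3.51 ± 0.55), and Insig1, a regulator of sterol synthesis (2.82 ± 0.27). These 2 were named after their values were seen. The NADIR_180 values of Scd were low by the limit above, so the size of its difference is poorly defined. The lowered genes all stood below VEH at NADIR_180, with a median of -1.15, and the difference from CONS_180 did not pass for any. The same VEH libraries had served to choose these genes.

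**Figure D4:**
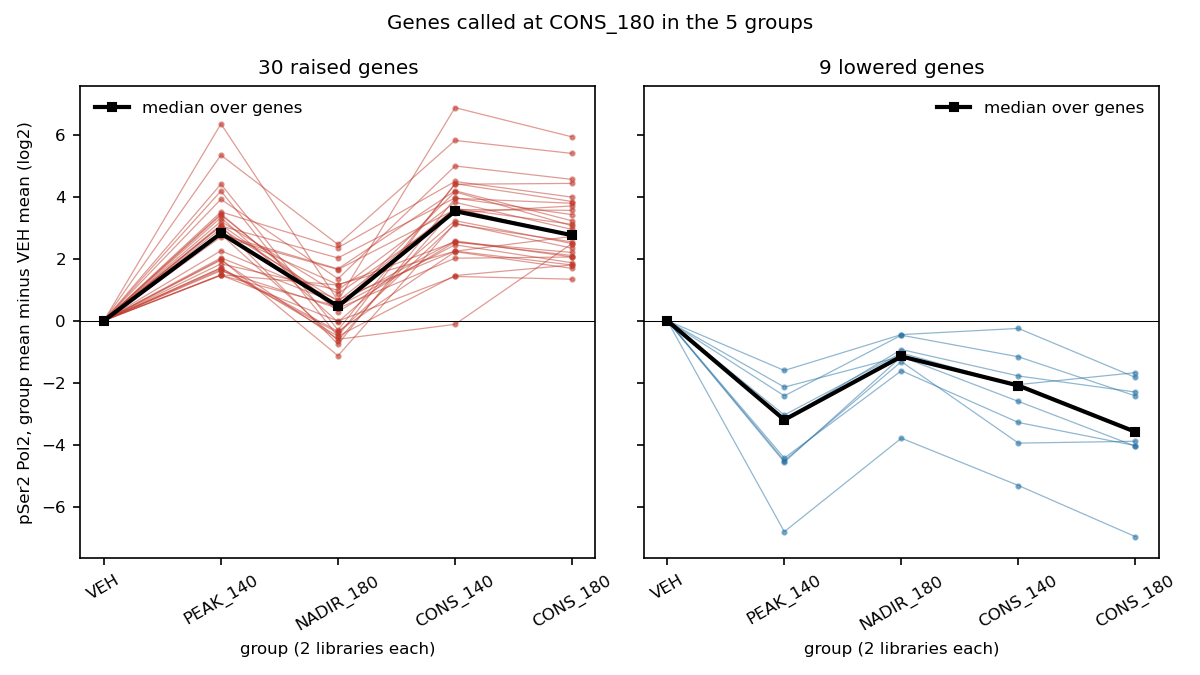
pSer2 Pol2 group mean minus the VEH mean (log2, vertical axis) in the 5 groups of 2 libraries for the 30 raised genes (left) and the 9 lowered genes (right). Thin lines join the values of 1 gene and the black line is the median over genes. The median of the raised genes is highest at CONS_140 (3.53), lies at 2.82 at PEAK_140 and 2.76 at CONS_180, and is lowest at NADIR_180 (0.46).

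GR binding of the same infusion and time was a readout not used to choose the genes. A GR peak of CONS_180 lay within 50 kb of the TSS for 29 of the 30 raised genes and for 1 of the 9 lowered genes, Osgin1, beside 15.8% of all genes tested and 23% of genes above the median value. Within 10 kb the counts were 21 of 30 and 1 of 9, beside 4.94% and 8.28%. The nearest peak was at a median distance of 3.97 kb for raised and 186 kb for lowered genes, over 2428 peaks. The raised gene with no peak within 50 kb was Zfp354a, with its nearest peak at -68.28 kb, where minus is upstream. At the Tdo2 peak, which covered the start site (chr2:180914767-180915393, rn6), the GR values were 3.19 and 3.87 at CONS_180 and -0.84 and -1.01 in VEH. At the Per1 peak, at -1.11 kb, they were 6.24 and 6.57 against 3.09 and 2.11. At the peak nearest Lpin1, at -10.65 kb, they were 3.69 and 2.90 against -0.82 and -0.94. The study called these GR peaks over input, so a high CONS_180 value at a peak is no further result. A rise over VEH was not required. At the peaks nearest Fads2, Serpina6 and Slc34a2, all lowered genes, CONS_180 minus VEH was only 0.70, 0.56 and 0.42. At those nearest the other called genes it was 1.98 or more, beside a median of 3.46 over all GR regions. For the lowered genes Gk, Car3, UST4r and Cxcl12 the nearest peak was far off, at -12810, 3474, 812 and -493 kb.

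**Figure D5:**
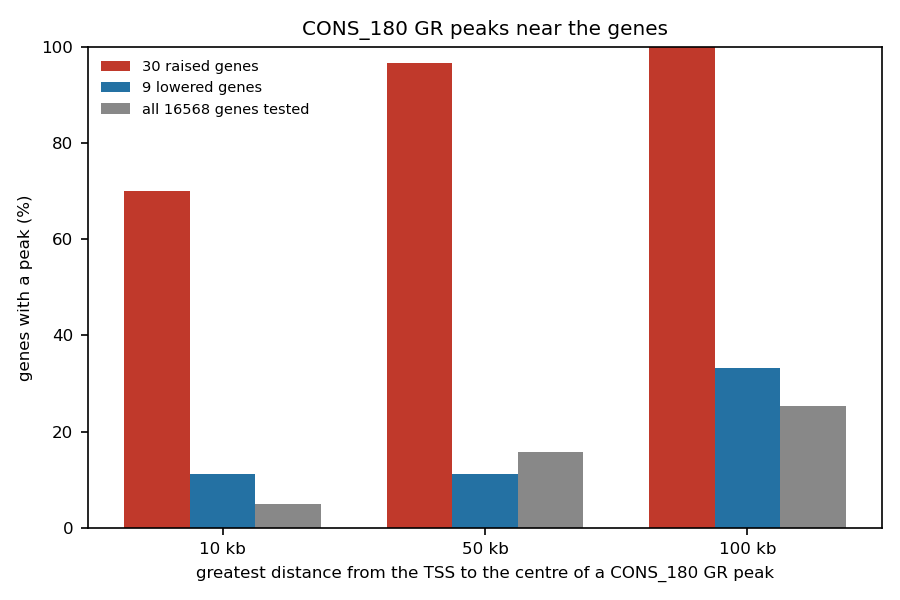
Share of genes (%, vertical axis) with the centre of a CONS_180 GR peak within 10, 50 or 100 kb of the TSS (horizontal axis), for the raised genes, the lowered genes and all genes tested. The raised genes stand at 70%, 96.7% and 100%, the lowered genes at 11.1%, 11.1% and 33.3%, and all genes at 4.94%, 15.8% and 25.3%.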

How the data were processed

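pSer2 Pol2 ChIP-Seq was analysed from the deposited table of log2 values per region. The authors trimmed reads (Trimmomatic 0.36), mapped them to rn6, removed input tags and scaled by total tags, with HOMER 4.9.1 and DESeq2. RNA-Seq was analysed from the deposited raw counts per gene (STAR and featureCounts 1.6.2, per the labels). The GR peak list holds positions called by the authors over input with replicates merged. The deposited fold change, p-value and adj p-value columns hold the authors' own comparisons and were not used.

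Log2 values were fitted with limma 3.58.1 (all 10 libraries, variance trend, 5 residual degrees of freedom), and counts with edgeR 4.0.16 (quasi-likelihood test, TMM, all 12 libraries, genes over 10 reads), with Benjamini-Hochberg adjustment over all features. Genes were called at adj p-value under 0.05 and over 1.5-fold. A gene was shown by its called region with the greatest change, otherwise by the region with the highest mean, which also gave the list medians. CPM values are TMM-scaled. Named genes were all called genes, each list's highest, lowest and called members, genes the study discusses, the 5 greatest RNA rises and falls with a tested region, and the 10 highest VEH genes. The members and lists were chosen with earlier results of these data known. Of 341 listed genes, 328 were found in the table by symbol and 320 were tested. A called gene's GR peak distance ran from the TSS of its region to the peak centre.

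Same-numbered CORT libraries deviated together in pSer2 Pol2 (correlations of 0.157 to 0.478 in 6 group pairs), so the blocked fit is given beside the comparison it changed. VEH libraries carry no number. Alternatives covered scaling, filters, thresholds, DESeq2 1.42.0 for RNA, and each library left out. The fits were tested on simulated data. Values of a few named genes are not reported here. Precision is limited by 2 libraries a group for ChIP-Seq and 3 for RNA-Seq, and p-values measure the spread between pools or between rats. In VEH of the ChIP-Seq that spread also held a difference in time.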

Additional observations from a re-analysis of the deposited data

Results flagged for a closer look

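For 17 of the genes raised at CONS_180, the 2 infusion patterns differed at 180 min by a test of the difference itself, which is why 16 of them are listed (limma, adj p-value under 0.05 and over 1.5-fold). As log2 differences of CONS_180 minus NADIR_180, the values were 5.28 for Zbtb16, 4.73 for Lpin1, 4.55 for Ugt2a3, 4.35 for AABR07044148.1, 3.47 for Tsku, 3.39 for Rhbdd2, 3.21 for Zfp354a and 3.09 for Hacl1. They were 2.93 for RGD1562310, 2.84 for Pfkfb1, 2.65 for Tsc22d3, 2.53 for Por, 2.48 for Edem1, 2.29 for Mfsd2a, 2.03 for Ass1 and 1.66 for Bhmt. NADIR_180 values of 3.1 or less stood at Ugt2a3 (2.79 and 2.70), Rhbdd2 (2.91 and 2.84), Zbtb16 (2.89 in 1 library) and AABR07044148.1 (2.65 in 1 library). The sizes of the differences at these genes are poorly defined. Over all genes tested, 0.169% were higher at CONS_180 than at NADIR_180. The listed genes had been chosen against VEH with the same CONS_180 libraries, which favoured passing, so the 2 shares are not independent.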

How the results depend on the processing

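Low VEH or CONS_180 values, of 3.1 or less, stood at 11 of the 39 called genes, where few tags leave the size of a change poorly defined. For CONS_180 against VEH, main counts of 30 raised and 9 lowered became 3 and 2 with only the 4 libraries compared, 90 and 43 with libraries centred on their medians, 105 and 65 with quantile normalization, 4 and 0 without a filter, 73 and 32 for regions above the median value, 12 and 1 at an adj p-value of 0.01, and 23 and 4 without a variance trend. Leaving out 1 library gave 0 to 37 raised and 0 to 0 lowered, the lone library then being assumed to vary like the other groups. In the same order, for CONS_180 against NADIR_180, 28 higher and 1 lower became 0 and 0, 61 and 11, 61 and 19, 4 and 0, 59 and 7, 15 and 0, and 29 and 2, and leaving out 1 library gave 0 to 19 higher and 0 to 63 lower. For CONS_180 against CONS_140, 0 and 0 became 7 higher after centring, 2 after quantile normalization, 12 higher and 1 lower above the median, 2 higher with a replicate block, and 0 to 31 higher and 0 to 2538 lower leaving out 1 library. The replicate block moved the NADIR_180 comparison to 25 and 1, and no paired analysis was possible for VEH, whose libraries carry no number.

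For RNA, 627 raised and 670 lowered became 445 and 387 at an adj p-value of 0.01, and 631 and 676 with a replicate block. Same-numbered RNA libraries of the constant infusion did not deviate together in every pair (correlations of 0.121, -0.0706 and 0.159). Other settings stayed within 1.5 times, with 510 to 644 raised and 454 to 629 lowered leaving out 1 library. pSer2 Pol2 genes with RNA called alike, 29 raised and 6 lowered, became 70 and 25 after centring, 81 and 39 after quantile normalization (chosen after seeing the data), 1 and 1 with only the 4 libraries, and 0 to 30 and 0 to 0 leaving out 1 library. With DESeq2 they were 29 and 6. Genes with a GR peak, 29 and 1, became 86 and 16 after centring, and 3 lowered genes had a peak within 100 kb. No named gene reversed a call, which carries little weight for the called pSer2 Pol2 genes, whose groups did not overlap. The cause of these changes was not tested.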
